A study of Mus musculus with 30 samples.

Results

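The 9 genes described here are mast cell genes: the granule proteases Cma1, Mcpt4, Tpsb2, Tpsab1 and Cpa3, the surface receptor genes Kit, Fcer1a and Ms4a2, and Hdc, which encodes the enzyme that makes histamine. They were chosen by symbol, with earlier results of these data known. All 9 of 9 symbols had a row on the array, 1 row each, out of 19938 genes tested. Each of 30 tumour samples, called tumours below, was measured on 1 Affymetrix mouse gene array, and all levels are on the deposited log2 scale. The tumours were grown from EL4, a lymphoma line of mouse T cells, under the skin of the flank of mice labelled WT. Water mice received no antibiotics, and antibiotic mice were given an antibiotic cocktail for 3 weeks before the cells. All mice then received oxaliplatin, a platinum drug that damages DNA, at 10 mg per kg into the peritoneum 7 days after the tumour cells. Tumours were taken at 0, 6 or 18 h after the drug, which gives 6 groups of 5 arrays. Strain, sex and age are not given, and no tumour without oxaliplatin was taken at 6 or 18 h, so drug and time cannot be told apart. The labels do not state that the 5 samples of a group came from separate mice, so p-values reflect only the spread among samples, which may be technical.

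Mast cells are tissue-resident cells of the blood lineage that mature in skin, mucosa and the margins of tumours. They store serine proteases, carboxypeptidase, histamine and proteoglycan in granules. They survive on stem cell factor, the ligand of Kit, and release the granules when antigen crosslinks IgE on the high-affinity Fc epsilon receptor. That receptor is built from an alpha chain that binds IgE (Fcer1a), a beta chain that amplifies the signal (Ms4a2) and a gamma chain that many myeloid cells also use (Fcer1g). Connective tissue mast cells, the type of the skin, carry chymases (Cma1 and Mcpt4), tryptases (Tpsb2 and Tpsab1) and Cpa3. GATA factors, chiefly GATA2, are known to drive several of these genes.

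The starts of these genes were searched for the GATA motif because the same factors are known to act on many of them. RefSeq promoter windows on GRCm38.p6, 250 bases before to 50 after each start, were matched for 7 of the 9 genes; Tpsb2 and Tpsab1 had no window. The motif was searched on either strand as AGATAA and in the variant forms AGATAG and also TGATAA and likewise TGATAG. It was present in 6 of the 7, which were Cma1, Mcpt4, Cpa3, Fcer1a, Ms4a2 and Hdc, against 29.8% of all 32851 windows. In Kit these letters were not in the window. The E-box CANNTG, which may overlap other motifs and reads alike on both strands, was in 5 of the 7 and in 72.3% of all windows. The 150 bases before the start are shown for the 5 genes whose motif lies within them, 5′ to 3′ on the gene's strand, with the GATA motif or its complement in capitals.
Cma1 (chr14:55944676-55944825, minus strand): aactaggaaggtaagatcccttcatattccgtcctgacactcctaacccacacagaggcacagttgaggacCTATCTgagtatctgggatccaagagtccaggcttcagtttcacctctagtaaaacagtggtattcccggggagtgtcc
Mcpt4 (chr14:56062311-56062460, minus strand): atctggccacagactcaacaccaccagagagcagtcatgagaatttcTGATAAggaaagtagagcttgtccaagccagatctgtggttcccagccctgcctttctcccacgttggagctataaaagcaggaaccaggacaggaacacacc
Cpa3 (chr3:20242182-20242331, minus strand): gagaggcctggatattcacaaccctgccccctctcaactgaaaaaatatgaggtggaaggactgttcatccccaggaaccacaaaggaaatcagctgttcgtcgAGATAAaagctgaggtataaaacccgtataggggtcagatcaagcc
Fcer1a (chr1:173227230-173227379, minus strand): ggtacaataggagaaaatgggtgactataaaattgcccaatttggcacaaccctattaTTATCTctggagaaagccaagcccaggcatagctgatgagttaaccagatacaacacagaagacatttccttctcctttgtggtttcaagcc
Ms4a2 (chr19:11623720-11623869, minus strand): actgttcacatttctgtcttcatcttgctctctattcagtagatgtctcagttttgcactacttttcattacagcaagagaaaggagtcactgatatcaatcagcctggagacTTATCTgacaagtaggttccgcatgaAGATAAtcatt

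In these stretches the motif began 79 bases before the start in Cma1, 103 in Mcpt4, 46 in Cpa3 and 92 in Fcer1a, and Ms4a2 held it at 37 and at 11 bases. Ms4a2 had a further copy at 224 bases, and the motif of Hdc lay at 221 bases, both outside the stretch shown. A match is a description of letters and not a measured binding site.

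By 18 h after oxaliplatin, Fcer1a, Tpsb2 and Cma1 rose in the tumours of water mice, by 1.34-fold, 1.23-fold and 1.20-fold over 0 h, and no member fell. These were 3 of 9 members, against 14.1% of all genes called. In antibiotic mice 0 of the 9 passed over the same interval in limma (0 at an unadjusted p under 0.05), where 1.22% of all genes were called. The difference between the 2 responses did not pass for any member. At 18 h the same 3 genes were lower in antibiotic than in water tumours, by 1.26-fold for Fcer1a, 1.25-fold for Tpsb2 and 1.27-fold for Cma1, against 7.85% of all genes called. The 2 calls of Tpsb2 and the rise of Fcer1a held under every alternative that kept the gene, while the rise of Cma1 and the 18 h difference of Fcer1a were lost under several, and the 18 h difference of Cma1 was lost without 1 array. The shared water tumours at 18 h enter both comparisons, so the 2 results are not independent of each other. The threshold was an adjusted p of 0.05 in limma, with Benjamini-Hochberg adjustment over all genes. In whole tumours, fewer mast cells and less RNA per mast cell cannot be told apart, and the part of other cells was not tested.

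The label was checked against the levels, and the outcome was mixed. On all 30 arrays Cpa3, Hdc, Mcpt4 and Tpsb2 lay above the array's own median over all rows, and Kit did so on 2 arrays. Cma1, Tpsab1, Fcer1a and Ms4a2 lay below it on every array. Cpa3 had a mean of 11.79 over the arrays, while Ms4a2, the dimmest member, had 4.32. These levels come from different probes and do not rank the genes by abundance. Background takes up more of a dim signal, so folds of the dim members may understate a change.

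Cma1 encodes mast cell protease 5, a chymase-family enzyme of the granule. In water tumours its values at 0 h were 6.52, 6.40, 6.80, 6.44 and 6.65. At 18 h they were 6.80, 6.91, 6.73, 6.82 and 6.86. Only the third tumour at 0 h, at 6.80, reached into the 18 h range. In antibiotic tumours at 18 h the values were 6.35, 6.68, 6.68, 6.38 and 6.32, and all 5 lay below all 5 water tumours. The rise in water mice was 0.26 ± 0.09 on the log2 scale (SE, n = 5 and 5; adjusted p = 0.0415), and the difference between antibiotic and water tumours at 18 h was -0.34 ± 0.09 (adjusted p = 0.0142). The rise was the least firm of the 3: it missed the threshold after subtracting array medians (adjusted p = 0.0541), after quantile normalisation (adjusted p = 0.0955) and in an ordinary linear model (adjusted p = 0.0508). It was also lost when any one of water 0 h arrays 1, 2 and 4 or water 18 h arrays 1, 2, 4 and 5 was left out, with an adjusted p of up to 0.118. The difference at 18 h was lost only without antibiotic array 1 (-0.31, adjusted p = 0.0576).

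Mcpt4, the chymase that functions most like human chymase, had values of 8.07, 7.66, 8.03, 8.10 and 8.05 at 0 h in water tumours. Its 18 h values were 8.00, 8.19, 7.95, 8.53 and 8.23 in water and 7.87, 8.24, 8.31, 7.82 and 7.78 in antibiotic tumours. The 3 groups overlapped widely, and no comparison passed. The estimate for 18 h against 0 h in water was 0.20 ± 0.12 (adjusted p = 0.339) and for antibiotics against water at 18 h -0.18 ± 0.12 (adjusted p = 0.49). The 95% interval of the latter ran from -0.43 to 0.07, which leaves in a difference as large as that of Cma1.

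Tpsb2 encodes a tryptase (mast cell protease 6) and gave the most separated values. The water tumours at 0 h had 7.49, 7.38, 7.69, 7.39 and 7.55, and those at 18 h had 7.88, 7.86, 7.72, 7.74 and 7.79. Every water tumour at 18 h was above every water tumour at 0 h. The antibiotic tumours at 18 h had 7.42, 7.65, 7.57, 7.43 and 7.31, again wholly below the water tumours of that time, and 4 of them lay within the range of the water tumours at 0 h. The rise in water mice was 0.30 ± 0.08 (adjusted p = 0.00788), and the difference between antibiotic and water tumours at 18 h was -0.33 ± 0.08 (adjusted p = 0.00905). Both calls held under every alternative and with any single array left out. Non-overlap of 18 h and 0 h in water was found in 1 of 9 members, Tpsb2, and in 11.2% of all genes (4.53% with 18 h higher). For antibiotics against water at 18 h it was found in 2 of 9, Cma1 and Tpsb2, and in 7.2% of all genes (2.46% with antibiotics lower).

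Tpsab1, the neighbouring tryptase gene, passed in no comparison. Its values were 5.84, 6.01, 6.40, 5.94 and 6.04 in water at 0 h, 6.33, 6.19, 6.33, 5.96 and 6.11 in water at 18 h, and 6.11, 6.05, 6.32, 6.10 and 5.92 in antibiotics at 18 h. The estimates were 0.14 ± 0.08 for the change in water mice (adjusted p = 0.331) and -0.08 ± 0.08 for antibiotics at 18 h (adjusted p = 0.719). The 95% interval of the former ran from -0.03 to 0.31, which leaves in a rise as large as that of Tpsb2. RefSeq lists this gene as a transcribed pseudogene in the reference strain. Tryptase genes are alike in sequence, so signal of one may reach the probes of the other, which could not be checked here.

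Cpa3 encodes carboxypeptidase A3, stored in the same granules as the proteases above. Its water tumours had 11.54, 11.89, 11.83, 11.48 and 12.10 at 0 h, 11.49, 11.64, 11.45, 11.79 and 11.87 at 6 h, and 11.98, 12.13, 11.87, 11.89 and 12.00 at 18 h. The lowest value at 18 h and the highest at 6 h were both 11.87, but those of 0 h were spread across nearly the whole range. The estimates were 0.33 ± 0.11 for 18 h against 6 h (adjusted p = 0.0568) and 0.20 ± 0.11 for 18 h against 0 h (adjusted p = 0.25). Antibiotic tumours at 18 h had 11.69, 11.95, 11.72, 11.81 and 11.96, for a difference from water of -0.15 ± 0.11 (adjusted p = 0.531).

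**Figure D1:**
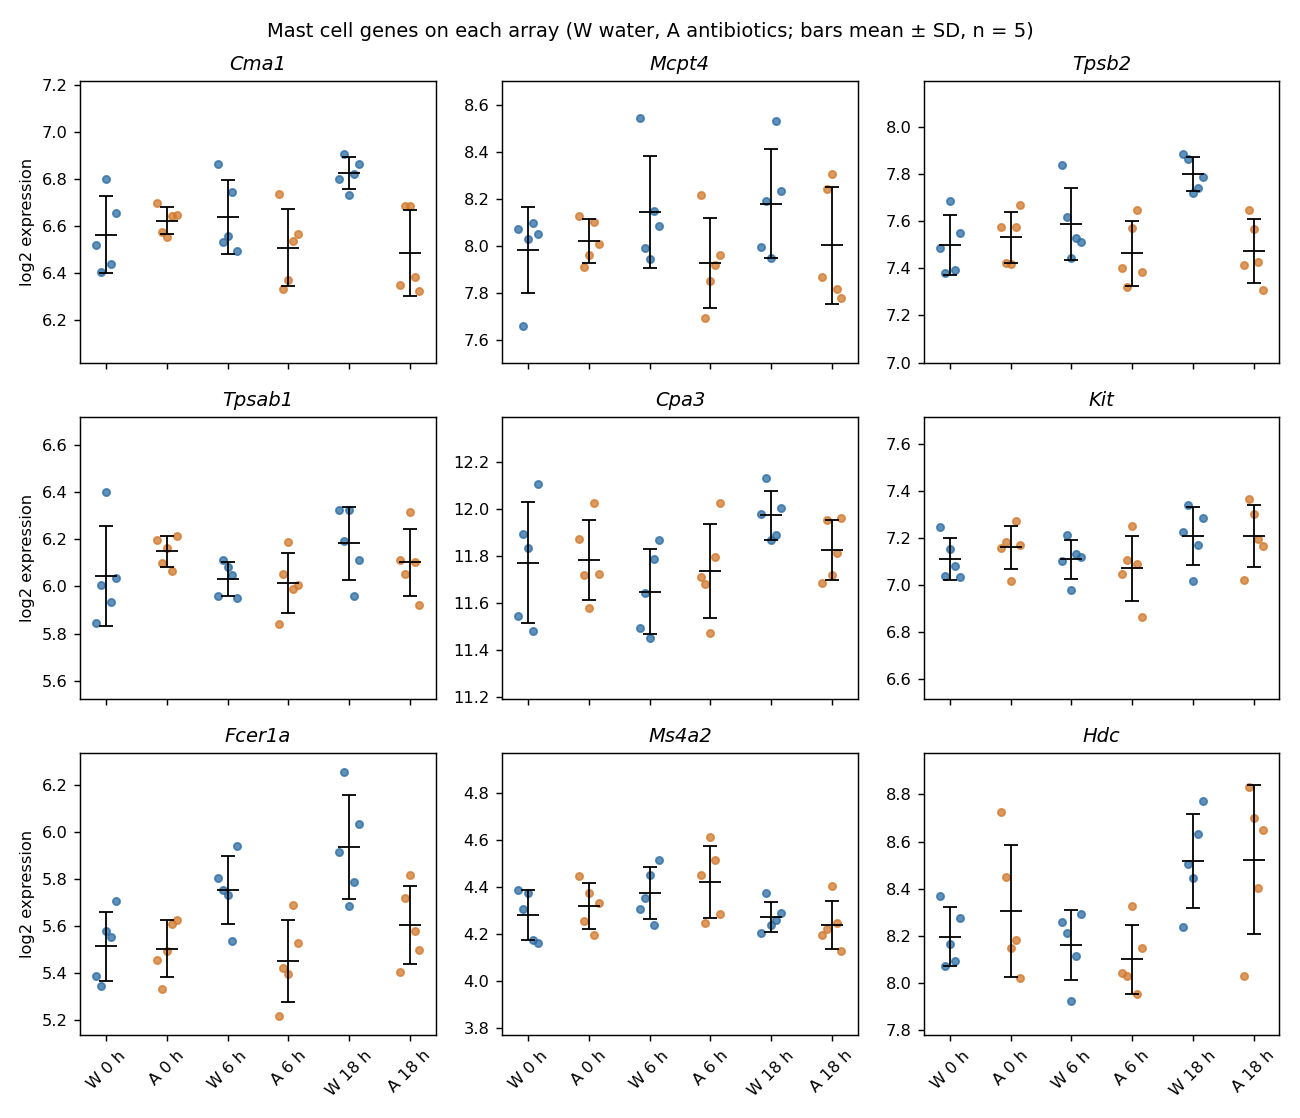
Log2 expression of each of the 9 mast cell genes on each array, by group, with 1 point per array and bars for the mean and SD of 5 arrays; each panel has its own vertical axis, all of equal span. The water tumours at 18 h sit highest for Cma1, Tpsb2 and Fcer1a, while the groups of Kit and Ms4a2 overlap throughout.

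Among the receptor genes, Fcer1a had the largest change. Its water tumours had 5.39, 5.34, 5.58, 5.55 and 5.70 at 0 h, 5.80, 5.75, 5.73, 5.54 and 5.94 at 6 h, and 5.91, 6.26, 5.69, 5.79 and 6.03 at 18 h. The lowest value at 18 h, 5.69, was just below the highest at 0 h. Antibiotic tumours had 5.45, 5.33, 5.49, 5.61 and 5.62 at 0 h, 5.21, 5.42, 5.40, 5.69 and 5.53 at 6 h, and 5.40, 5.72, 5.82, 5.58 and 5.50 at 18 h. They showed no step of that size at any time. The rise from 0 to 18 h in water mice was 0.42 ± 0.10 (adjusted p = 0.00436), and it passed under every alternative that kept the gene and with any single array left out. At 6 h the water value stood 0.24 ± 0.10 above 0 h, which did not pass (adjusted p = 0.348).

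Fcer1a was lower in antibiotic than in water tumours at 18 h, at -0.33 ± 0.10 (adjusted p = 0.039), and the estimate at 6 h was -0.30 ± 0.10 (adjusted p = 0.0858). At 0 h the groups stood at -0.01 ± 0.10 of each other. Averaged over the 3 times the difference was -0.21 ± 0.06 (adjusted p = 0.0218), which made Fcer1a the 1 of 9 members past the threshold in that comparison, against 6.65% of all genes in either direction and 4.07% lower. The averaged call held under every alternative that kept the gene. The call at 18 h did not: it was lost after subtracting array medians (adjusted p = 0.0561), with only the groups compared in the fit (adjusted p = 0.114), and when any one of water 18 h arrays 1, 2 and 5 or antibiotic 18 h arrays 1, 4 and 5 was left out (adjusted p up to 0.139).

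Ms4a2, the beta chain of the same receptor, passed in no comparison. Its values ranged from 4.16 to 4.39 in water at 0 h, from 4.21 to 4.37 in water at 18 h and from 4.13 to 4.40 in antibiotics at 18 h. The estimate for 18 h against 0 h in water was -0.01 ± 0.07, with a 95% interval of -0.15 to 0.13. A rise in signal as large as the estimate for Fcer1a lay outside that interval. Ms4a2 was the dimmest member, at a mean of 4.32, so its signal may understate a change in RNA. Its group means were highest at 6 h in antibiotic tumours, at 4.42 ± 0.15 (SD, n = 5).

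Kit, the receptor of stem cell factor, ranged from 7.04 to 7.25 in water at 0 h, from 7.02 to 7.34 in water at 18 h and from 7.02 to 7.36 in antibiotics at 18 h. Those 3 groups covered nearly the same range. The difference between antibiotic and water tumours at 18 h was 0.00 ± 0.07, with a 95% interval of -0.14 to 0.15, and the estimate for 18 h against 0 h in water was 0.10 ± 0.07 (adjusted p = 0.438). Kit is also a gene of melanocytes, the pigment cells of skin and hair. At 6 h the melanocyte genes Tyrp1 (1.12 ± 0.32, adjusted p = 0.0472), Dct (0.97 ± 0.25, adjusted p = 0.025) and Pmel (0.43 ± 0.10, adjusted p = 0.0134) were higher in antibiotic than in water tumours. These were 3 of 9 melanocyte markers, against 3.77% of all genes called, and Tyr did not pass. Kit at 6 h stood at -0.04 ± 0.07, and the part of pigment cells in its level was not tested.

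Hdc, histidine decarboxylase, had its highest group means at 18 h in both treatments. Its values were 8.37, 8.07, 8.17, 8.09 and 8.27 in water at 0 h and 8.24, 8.50, 8.45, 8.63 and 8.77 in water at 18 h. In antibiotic tumours they were 8.04, 8.03, 8.33, 7.95 and 8.15 at 6 h and 8.03, 8.83, 8.70, 8.40 and 8.65 at 18 h. Of the antibiotic tumours at 18 h, 4 exceeded every antibiotic tumour at 6 h, and array 1 did not. The estimates were 0.32 ± 0.13 for 18 h against 0 h in water (adjusted p = 0.0988), 0.36 ± 0.13 for 18 h against 6 h in water (adjusted p = 0.0779) and 0.42 ± 0.13 for 18 h against 6 h in antibiotics (adjusted p = 0.082). None passed, although the last did without antibiotic 18 h array 1. Antibiotics against water at 18 h gave 0.00 ± 0.13, with a 95% interval of -0.26 to 0.27. Neutrophils and other myeloid cells can also express Hdc.

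Over the 9 genes, the 18 h against 0 h comparison in water mice called 3 of 9, all higher, against 14.1% of all genes in either direction and 6.18% higher. Of the 9 estimates 8 were above 0, with a median of 0.20, against 53.8% and a median of 0.01 over all genes. Antibiotics against water at 18 h called 3 of 9, all lower, against 7.85% of all genes in either direction and 3.34% lower. Here 7 of 9 estimates were below 0, with a median of -0.15 against -0.01 for all genes. The members' shares were thus above those of all genes in both comparisons, on counts of 3. Markers of other cell types moved with them in part. From 0 to 18 h in water mice 5 of 15 fibroblast and matrix and 5 of 12 endothelial markers rose. In antibiotic tumours at 18 h 2 of 15 fibroblast and matrix markers were lower, and no endothelial marker passed. The part of these cells in the result was not tested.

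The other 2-group comparisons called 0 of 9 members by limma. They were antibiotics against water at 0 h (0.0903% of all genes called, 0 members at an unadjusted p under 0.05) and at 6 h (3.77%, 1 member unadjusted). Within water mice they were 6 h against 0 h (1.11%, 1 member unadjusted) and 18 h against 6 h (9.58%, 4 members unadjusted). Within antibiotic mice they were 6 h against 0 h (0%, 0 members unadjusted), 18 h against 0 h (1.22%, 0 members unadjusted) and 18 h against 6 h (2.12%, 2 members unadjusted). In antibiotic mice the change from 0 to 18 h was -0.14 ± 0.09 for Cma1, -0.06 ± 0.08 for Tpsb2 and 0.10 ± 0.10 for Fcer1a. The smallest adjusted p of a member in that comparison was 0.599.

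Whether the change from 0 to 18 h differed between the treatments was tested as an interaction, and 0 of 9 members passed (0.105% of all genes, limma). All 9 estimates were below 0, against 49.5% of all genes, and 3 had an unadjusted p under 0.05. Those were Cma1 at -0.40 ± 0.12 (adjusted p = 0.197), Tpsb2 at -0.36 ± 0.11 (adjusted p = 0.189) and Fcer1a at -0.32 ± 0.14 (adjusted p = 0.454). The rise in water mice is therefore not shown to differ from the change in antibiotic mice. The interaction at 6 h likewise passed for 0 of 9 members and 0% of all genes, with 1 member, Fcer1a at -0.29 ± 0.14, at an unadjusted p under 0.05.

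**Figure D2:**
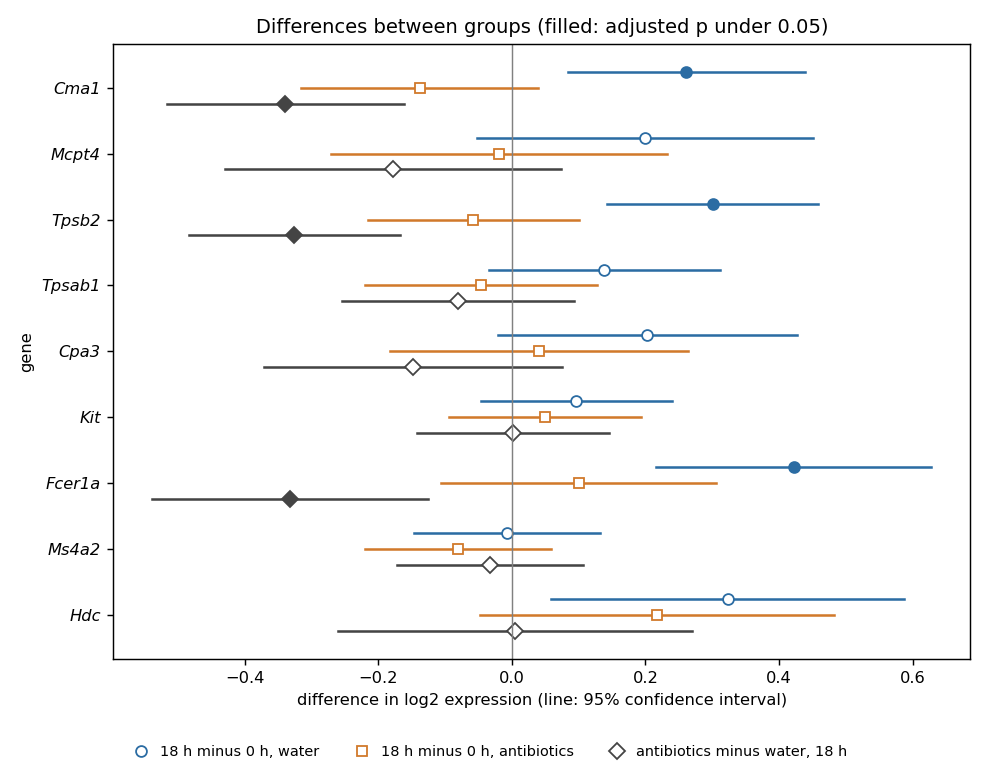
Differences in log2 expression for the 9 genes, with lines for the 95% confidence interval and filled symbols for an adjusted p under 0.05. Cma1, Tpsb2 and Fcer1a are filled for 18 h against 0 h in water mice and for antibiotics against water at 18 h, and no gene is filled for 18 h against 0 h in antibiotic mice.

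The order of the 6 group means was led by water tumours at 18 h for Cma1, Mcpt4, Tpsb2, Tpsab1, Cpa3 and Fcer1a. Kit and Hdc had their highest mean in antibiotic tumours at 18 h, with water tumours at 18 h next, and Ms4a2 in antibiotic tumours at 6 h. For each gene, every pair of neighbours in the order overlapped in their values, so no step from one group to the next was clear of the spread.

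The antibiotic tumours at 18 h were split among themselves. The mean of the 9 genes, each taken relative to its own mean over the 30 arrays, was 0.14 on array 2 and 0.15 on array 3, ranks 5 and 3 of the 30 arrays. Array 1 was at -0.16, array 4 at -0.06 and array 5 at -0.08, with array 1 at rank 29. The water tumours at 18 h ran from 0.06 to 0.25 and held ranks 1, 2, 4, 6 and 10. Array 1 of the antibiotic tumours also had the highest keratinocyte mean (0.71) and the lowest muscle mean (-0.70) of its group, and the part of surrounding tissue in its values was not tested. With that array left out, 1 of 9 members, Tpsb2, passed for antibiotics against water at 18 h. At 6 h the arrays highest in keratinocyte genes were water array 1 (a mean of 2.02) and antibiotic array 1 (1.70). Each had the highest Cma1 and Mcpt4 of its group, at 6.86 and 8.54 in water and 6.73 and 8.22 in antibiotics. Other members did not all follow. Antibiotic array 1 had the lowest Fcer1a (5.21) and Tpsab1 (5.84) of its group. Cpa3 on water array 1 stood at 11.49, below its group mean of 11.65. The part of skin in these values was not tested.

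**Figure D3:**
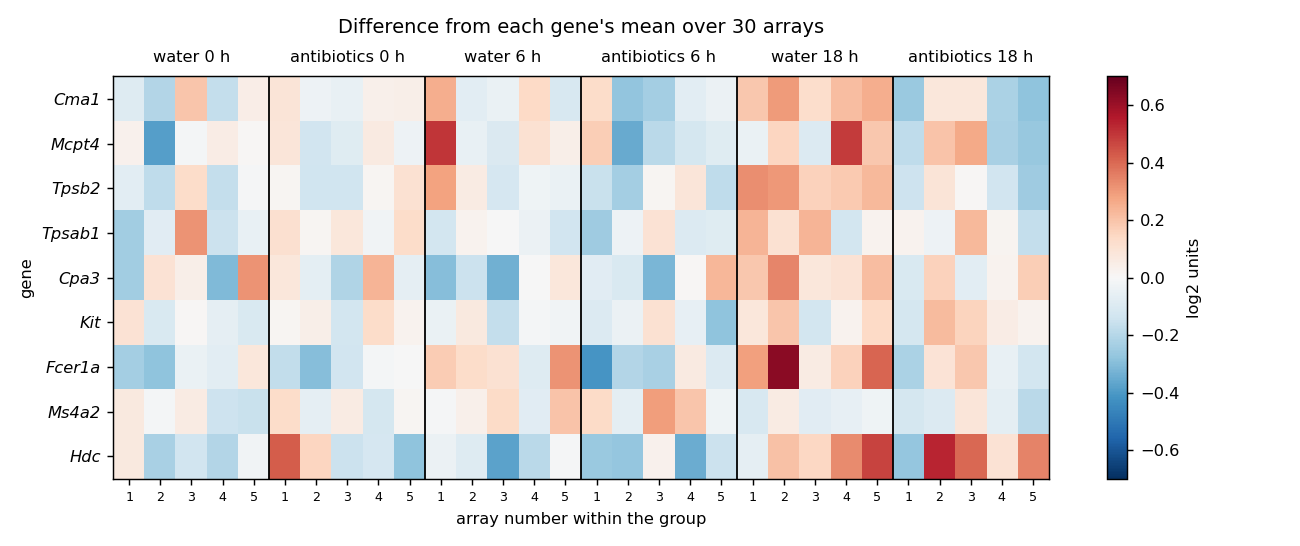
Each gene's difference in log2 units from its own mean over 30 arrays, with genes in rows and arrays in columns by group. In water tumours at 18 h most cells are red, up to 0.63 for Fcer1a on array 2, and in antibiotic tumours at 18 h arrays 2 and 3 differ from arrays 1, 4 and 5.

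The members varied together only in part. Correlations were taken on deviations from the group means over 30 arrays, which share their hybridisation and their tissue sampling, and are given as a description. Of 36 pairs, 31 were above 0 and 3 above 0.5, with a median Pearson r of 0.248. The closest pair was Cma1 and Mcpt4 (r = 0.764, Spearman rho = 0.733), which lie in the same gene cluster on chromosome 14 and are related in sequence, followed by Cma1 and Tpsb2 (r = 0.644) and Tpsb2 and Fcer1a (r = 0.52). Against the mean of the other 8 genes, Tpsb2 had r = 0.678 and Cma1 r = 0.663, while Cpa3 had 0.126 and Tpsab1 0.0537. Cpa3, whose product is stored with those of the protease genes, thus followed the other members little.

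The chymase and tryptase genes lie in 2 clusters, whose other genes were read beside them. Cma1 and Mcpt4 lie in a cluster of chymase and granzyme genes on chromosome 14 that runs from Cma1 to Gzmb and holds 15 protein-coding genes in RefSeq, 13 of them tested. Only Cma1 passed in either of the 2 main comparisons. Mcpt1 (-0.08 ± 0.08) and Mcpt2 (-0.14 ± 0.11), proteases of mucosal mast cells, did not pass for 18 h against 0 h in water. Gzmb, a cytotoxic granule protease at the far end of the cluster, had the largest estimate there, 0.73 ± 0.29, and did not pass (adjusted p = 0.0956). Of the 3 genes of the tryptase cluster on chromosome 17, Tpsb2 passed in both comparisons, while Tpsab1 and Tpsg1 (-0.04 ± 0.09 for 18 h against 0 h in water) passed in neither.

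Counts in the other gene lists are to be read against the shares of all genes called, 14.1% for 18 h against 0 h in water mice (6.18% higher) and 7.85% for antibiotics against water at 18 h (3.34% lower). Of 13 tested granule proteases and contents outside the 9, 2 rose from 0 to 18 h in water mice and 0 fell. The shares of all genes were 14.1% in either direction and 6.18% higher. They were Srgn, the core protein of granule proteoglycan (0.16 ± 0.05, adjusted p = 0.0256), and Hpgds, the mast cell prostaglandin D synthase (0.36 ± 0.10, adjusted p = 0.0119). At 18 h 0 of the 13 passed between antibiotic and water tumours by limma (1 at an unadjusted p under 0.05), and their median was -0.07. Slc18a2, which loads amines into granules, and Ctsg, the granule enzyme cathepsin G, did not pass in either comparison. Of 11 genes that handle histamine and serotonin, the receptors Hrh1, Hrh2 and Hrh4 among them, 0 passed in either comparison by limma (1 unadjusted from 0 to 18 h in water, 0 between treatments). Many of these genes are also expressed by other myeloid cells or, as with Srgn, by lymphocytes.

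Of the Fc epsilon receptor pathway, the gene of the shared gamma chain passed at 18 h. Fcer1g was lower in antibiotic tumours at 18 h (-0.40 ± 0.09, adjusted p = 0.00892). It was the 1 of 23 tested pathway genes to pass there, against 7.85% of all genes. From 0 to 18 h in water mice its estimate was 0.02 ± 0.09 (adjusted p = 0.94), beside 0.42 ± 0.10 for Fcer1a. Averaged over the times, 5 of the 23 passed, against 6.65% of all genes, 4 of them lower and 1 higher in antibiotic tumours. The lower ones were Fcer1g (-0.28 ± 0.05, adjusted p = 0.00161), the calcium-dependent factor gene Nfatc2 (-0.14 ± 0.03, adjusted p = 0.00101), the kinase subunit gene Pik3r1 (-0.12 ± 0.04, adjusted p = 0.0292) and the adaptor gene Lat2 (-0.16 ± 0.05, adjusted p = 0.0409). The higher one was the kinase gene Fyn (0.19 ± 0.04, adjusted p = 0.00101). Syk, the kinase that the gamma chain recruits, did not pass at 18 h (-0.27 ± 0.12, adjusted p = 0.167). From 0 to 18 h in water mice 1 of 23 passed, Sos1, which fell, below the 14.1% of all genes. Of 17 genes of Kit signalling, 3 fell over that interval (Sos1, Cbl and Ptpn11) and 0 rose, against 14.1% of all genes called. At 18 h 1 of the 17, Cbl, was higher in antibiotic tumours (0.12 ± 0.04, adjusted p = 0.0419), against 7.85% of all genes called. EL4 is a line of T cells, and the part of the tumour cells in these pathway values was not tested.

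Among 22 regulators and receptors of mast cells, Csf2rb2 (0.40 ± 0.11), a beta chain that serves the interleukin 3 receptor, and Cd300a (0.31 ± 0.07), an inhibitory receptor, rose from 0 to 18 h in water mice, and Il9r (-0.40 ± 0.07) fell, against 14.1% of all genes called. Il9r also fell over that interval in antibiotic mice (-0.41 ± 0.07, adjusted p = 0.00174). It was higher in antibiotic than in water tumours at 6 h (0.29 ± 0.07, adjusted p = 0.0179). Cd300a was the 1 of 22 that differed at 18 h, lower in antibiotic tumours (-0.30 ± 0.07, adjusted p = 0.00526), against 7.85% of all genes. Gata2, Gata1 and Mitf, factors known to direct the mast cell program, did not pass in either comparison, and the estimates for Gata2 were -0.06 ± 0.06 and 0.08 ± 0.06. Of 12 growth factors and attractants, Ccl2, a chemokine that draws monocytes and mast cell precursors, rose by 0.92 ± 0.16 in water mice (adjusted p = 0.000191) and was lower in antibiotic tumours at 18 h (-0.60 ± 0.16, adjusted p = 0.0178). Tgfb1 fell from 0 to 18 h. Kitl, which encodes stem cell factor, did not pass (0.11 ± 0.15 and -0.11 ± 0.15). The part of the EL4 cells in the values of these regulators and factors was not tested.

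Lipid mediators are the other arm of mast cell output. From 0 to 18 h in water mice 3 of 14 such genes rose: Alox5ap, which presents arachidonic acid to the leukotriene enzyme (0.39 ± 0.12, adjusted p = 0.0229), Hpgds and Ptges. Alox5ap alone of the 14 was lower in antibiotic tumours at 18 h (-0.49 ± 0.12, adjusted p = 0.00949). Alox5 and Ltc4s, the next enzymes of that path, did not pass in either comparison. Macrophages and neutrophils express most of this path too.

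Basophils share Fcer1a and Ms4a2 with mast cells, so their own markers were read beside the receptor. The basophil proteases gave 0.14 ± 0.12 for Mcpt8 and -0.04 ± 0.08 for Prss34 from 0 to 18 h in water mice, and neither passed. Of the 9 basophil markers the 1 that rose was Fcer1a itself. Mcpt8 group means ran from 5.45 to 5.62 and those of Prss34 from 6.12 to 6.31, all below the lowest array median of 7.25. Fcer1a and Ms4a2 themselves also lay below the array median on every array. Eosinophil, dendritic cell, neutrophil and melanocyte markers each had 0 that passed in the 2 main comparisons by limma. At an unadjusted p under 0.05 these were 3 of 13 neutrophil and 1 of 9 melanocyte markers from 0 to 18 h in water, and 0 of the 4 lists otherwise. The mean of the basophil list per array was taken without the 2 genes that it shares with the 9. It followed the mean of the 9 genes with r = 0.0243 on deviations from the group means. The part of basophils in the Fcer1a values was not tested.

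Fibroblast and matrix markers moved with the mast cell genes more closely than any other list read here. From 0 to 18 h in water mice 5 of 15 rose (Col6a1, Dcn, Mmp2, Postn and Sparc, all genes of matrix or its remodelling), and the median of the list was 0.30. In antibiotic tumours at 18 h 2 of 15 were lower, Col6a1 (-0.34 ± 0.09, adjusted p = 0.0189) and Mmp2 (-0.58 ± 0.15, adjusted p = 0.0164). The list's mean per array ran from -0.29 to 0.21 in water at 0 h, from 0.06 to 0.34 in water at 18 h and from -0.34 to 0.28 in antibiotics at 18 h. It followed the mean of the 9 genes with r = 0.835 (Spearman rho = 0.847) on deviations from the group means over 30 arrays, and 0.778 without the 2 arrays farthest from its median. Arrays 2 and 3 of the antibiotic tumours at 18 h were the highest of their group in both means, and array 1 the lowest. The part of connective tissue content in the mast cell values was not tested.

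**Figure D4:**
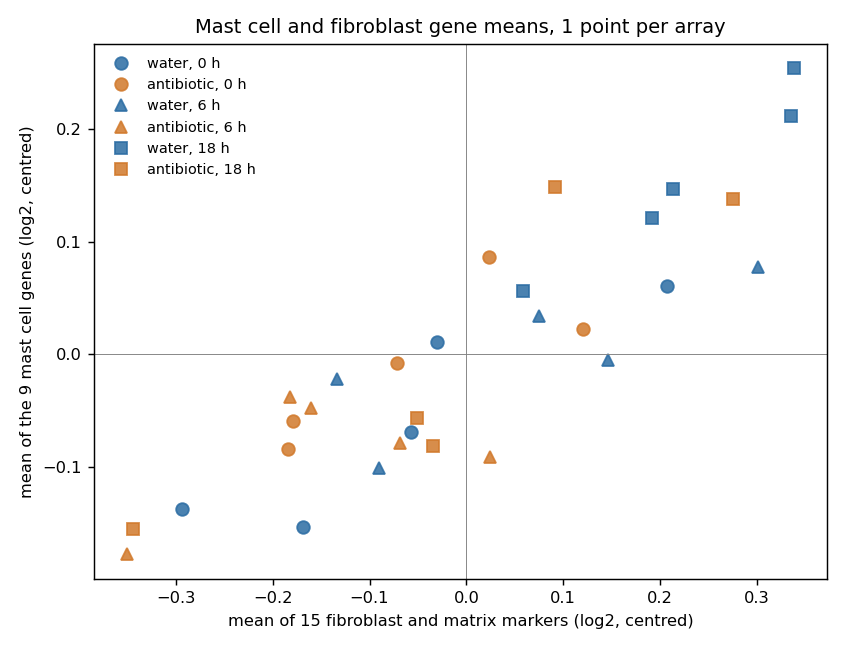
Mean of the 9 mast cell genes against the mean of 15 fibroblast and matrix markers, both in log2 units with each gene centred on its mean over 30 arrays, 1 point per array, coloured by treatment and shaped by time. The points run from low in both to high in both. The water tumours at 18 h lie in the upper right, and arrays 2 and 3 of the antibiotic tumours at 18 h lie there too. The antibiotic tumours at 18 h spread from -0.34 to 0.28 along the horizontal axis.

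Other lists moved with the members to a lesser degree on the same deviations. The lists related to mast cells ran from r = 0.184 for histamine and serotonin handling to 0.68 for the other granule proteases and contents. Markers of other cell types gave r = 0.605 for 12 endothelial, 0.545 for 13 macrophage, 0.537 for 13 neutrophil and 0.149 for 12 T cell markers. Keratinocyte markers gave -0.0992. From 0 to 18 h in water mice 5 of 12 endothelial, 2 of 13 macrophage, 2 of 12 T cell and 1 of 9 adipocyte markers rose, against 6.18% of all genes, and 0 of 12 keratinocyte (1 unadjusted) and 0 of 14 muscle markers (0 unadjusted) passed by limma. At 18 h 2 macrophage markers (Cd68 and C1qb), 2 T cell markers (Cd3d and Cd4) and 2 adipocyte markers (Fabp4 and Pparg) were lower in antibiotic tumours. EL4 cells are themselves T cells. Per array, the macrophage mean ran from 0.08 to 0.49 in water and from -0.48 to 0.17 in antibiotic tumours at 18 h. Whether these cells have a part in the mast cell values was not tested.

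The genes most alike in pattern to the mean of the 9 included several genes of collagen and matrix. Over all 30 arrays the 8 with the highest r out of 19929 other genes were Col3a1 (0.861), Sparc (0.858), Dram1 (0.855), Fstl1 (0.853), Pcolce (0.848), Olfml3 (0.845), Serping1 (0.838) and Mmp2 (0.834). On deviations from the group means they were Col3a1 (0.887), Fstl1 (0.847), Pcolce (0.821), Axl (0.806), Gng12 (0.8), Bicc1 (0.799), Srpx (0.796) and Ddah1 (0.792). Col3a1, a fibrillar collagen, led both orders and kept r = 0.819 and 0.897 without the 2 arrays farthest from the median of the members' mean. Its own estimates were 0.20 ± 0.11 for 18 h against 0 h in water (adjusted p = 0.289) and -0.27 ± 0.11 for antibiotics at 18 h (adjusted p = 0.165), so it followed the members across arrays without passing in either comparison. These correlations describe arrays of mixed tissue and carry no test.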

How the data were processed

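Total RNA of 30 tumour samples was amplified, labelled with biotin and hybridised to 1 Affymetrix mouse gene array per sample, per the labels' protocols. The authors deposited log2 values, 28853 for each array, and these were used as they stand. Partek 6.6 is named, without its role, in the submitters' processing notes. The summarisation and normalisation behind the values are not given in the sources used here. The medians of the arrays were 7.25 to 7.37. Of 23353 rows in the platform's probe table, 21775 had 1 gene symbol. For each symbol the row of highest mean stood for the gene, which left 19938 genes.

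One model with 6 group means was fitted by lmFit and eBayes of limma 3.58.1 under R 4.3.3, with 24 residual and 3.63 prior degrees of freedom. Its 12 comparisons were two-sided, with Benjamini-Hochberg adjustment over all genes and a threshold of 0.05. Errors given as ± beside a difference are the SEs of this fit. The number of arrays limits the precision. The members, the other gene lists and the alternatives were chosen with earlier results of these data known. All 9 members are described, the other lists by the genes past the threshold and by defining markers, and genes alike in pattern as the 8 with the highest Pearson r. Alternatives were 2 further normalizations, other fits, a filter on dim genes, a mean over rows, and single arrays or 3 arrays left out. Replicate numbers follow the order of the samples and pair none.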

Additional observations from a re-analysis of the deposited data

Results flagged for a closer look

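Of 54 groups of 5 values checked, 1 held an array far from the others, and chance gives about 1 in 20, or 2.7. It was Mcpt4 in water tumours at 0 h, where array 2 stood at 7.66 and the nearest of the others at 8.03, a gap of 0.853 of the group's range against a critical value of 0.71. No difference in a group's response passed a test between treatments.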

How the results depend on the processing

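Of 148 recomputed values of the called genes, 129 kept their direction and their side of the threshold, 19 kept the direction but missed the threshold, and 0 reversed. Tpsb2 passed in both of its comparisons under every alternative run, with an adjusted p of up to 0.0328. The filter on dim genes kept 11162 genes and 4 members (Mcpt4, Tpsb2, Cpa3 and Hdc). Under it 1 member passed for 18 h against 0 h in water mice and 1 for antibiotics against water at 18 h, since Cma1 and Fcer1a were no longer tested. For 18 h against 6 h in water mice, where 0 passed as reported, 1 passed after quantile normalisation (Cpa3), 2 with only the groups compared in the fit (Cpa3 and Hdc), 3 with array weights, 3 with the filter on dim genes and 1 with 3 arrays high in skin or muscle genes left out (Tpsb2). For 18 h against 6 h in antibiotic mice 1 (Hdc) passed with array weights and with the filter on dim genes. Averaged over the times, 2 members were lower with array weights (Tpsb2 and Fcer1a) and 2 without those 3 arrays (Cma1 and Fcer1a). With each array left out in turn, the members past the threshold numbered 2 to 4 for 18 h against 0 h in water, 1 to 3 for antibiotics against water at 18 h, 1 to 2 averaged over the times, and 0 to 1 for 18 h against 6 h in water and in antibiotic mice. The counts of the other comparisons stayed at 0 under every alternative. Of these changes only the filter's own construction gives a cause, and the cause of the others was not tested. No paired analysis was possible because the replicate numbers only follow the order of the samples and pair none. Cma1, Tpsab1, Fcer1a and Ms4a2 lie toward the dim end of the array, which limits what a small difference there can show.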
